A study of Homo sapiens with 9 samples.

Results

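The genes described here are 48 human DNA replication genes known as targets of the E2F transcription factors. They were chosen by name from the machinery of replication origins, replication forks and nucleotide synthesis. No rule on their values was used, but earlier results of these data were known when they were chosen. All 48 were found among the 57163 genes of the count table by their Ensembl identifiers, matched to GENCODE symbols. RNA-seq was run on 293T cells, an established line derived from human embryonic kidney. Total RNA was taken 48 h after the cells received a lentiviral expression plasmid carrying EGFP and, from the EF1A promoter, the open reading frame of 1 transcription factor (TF). The 4 TFs NRF1, E2F4, EGR1 and ZBTB7A were studied as TFs that bind conserved long noncoding RNA genes (CLB_TFs), and the 4 TFs HOXA11, RORA, TFCP2 and NKX2-8 as control TFs without that preference. The control library is labelled blank in the sample records, and the methods name an empty control plasmid. The labels give no second treatment and no change of genotype, and each of the 9 conditions was 1 library. All values are from whole cultures, so fewer cells expressing a gene and less RNA per cell cannot be told apart.

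Replication begins when the origin recognition complex, CDC6 and CDT1 load the MCM2-7 ring on DNA, and it fires when CDC45 and GINS join that ring to form the active helicase. At the fork, polymerase alpha-primase lays primers, polymerases delta and epsilon extend them on the PCNA clamp, and RPA coats the exposed single strand, while ribonucleotide reductase and its partner enzymes supply nucleotides. Most genes of this machinery peak in transcript at the G1/S boundary, where E2F sites in their promoters are released from repression by RB-family pocket proteins. E2F4 is the family member best known as the DNA-binding partner of these pocket proteins in resting and early G1 cells.

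The promoter of a gene was taken as 250 bases before to 50 bases after its transcription start in the RefSeq table (GRCh38.p14), which held 42 of the 48 genes; MCM4, MCM5, GINS4, POLD3, RPA2 and RPA3 had no entry. An E2F motif, TTTCGCGC or TTTGGCGC on either strand, was present in 11 of these 42 promoters (26.2%), against 1.18% of 27305 promoters. The shares were 25.0% in 16 promoters of E2F family and G1/S regulator genes, 16.7% in 36 promoters of other replication genes and 8.33% in 24 promoters of mitosis genes. The 11 genes were CDC6, MCM2, MCM3, MCM6, MCM7, GINS1, CDC25A, POLA1, POLA2, POLE and POLE2. Stretches of 5 promoters are shown from 170 bases before to 30 bases after the start, with bases of the E2F motif in capitals. They are those of POLE and CDC25A, which hold the motif and were among the replication genes highest in the E2F4 library over control, of TYMS, which was high there and had no match, and of MCM6 and MCM2, which held the most matches. All 5 stretches had 1 exact match in GRCh37, at chr12:133263899-133264098 on the minus strand for POLE, chr3:48229878-48230077 on the minus strand for CDC25A, chr18:657483-657682 on the plus strand for TYMS, chr2:136633984-136634183 on the minus strand for MCM6 and chr3:127317084-127317283 on the plus strand for MCM2.
POLE: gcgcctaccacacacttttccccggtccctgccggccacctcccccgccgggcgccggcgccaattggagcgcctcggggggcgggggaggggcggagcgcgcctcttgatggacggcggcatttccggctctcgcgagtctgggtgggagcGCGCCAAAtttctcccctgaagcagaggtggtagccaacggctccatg
CDC25A: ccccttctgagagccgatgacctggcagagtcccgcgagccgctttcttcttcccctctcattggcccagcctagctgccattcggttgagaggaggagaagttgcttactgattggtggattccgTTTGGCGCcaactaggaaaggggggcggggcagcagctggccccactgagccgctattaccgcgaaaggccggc
TYMS: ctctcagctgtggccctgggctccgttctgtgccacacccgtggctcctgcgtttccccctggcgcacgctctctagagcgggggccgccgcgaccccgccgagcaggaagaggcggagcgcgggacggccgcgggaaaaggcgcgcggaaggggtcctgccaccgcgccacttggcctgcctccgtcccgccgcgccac
MCM6: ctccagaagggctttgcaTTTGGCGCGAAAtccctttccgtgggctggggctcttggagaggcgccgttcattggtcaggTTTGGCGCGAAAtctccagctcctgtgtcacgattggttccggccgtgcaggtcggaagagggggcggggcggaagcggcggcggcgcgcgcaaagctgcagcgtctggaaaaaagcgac
MCM2: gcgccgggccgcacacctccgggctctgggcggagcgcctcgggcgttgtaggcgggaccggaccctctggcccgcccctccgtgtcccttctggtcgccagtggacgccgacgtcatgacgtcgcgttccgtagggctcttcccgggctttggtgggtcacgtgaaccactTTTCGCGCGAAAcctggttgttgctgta
In MCM6 the 4 matches were 2 overlapping pairs, each a forward TTTGGCGC sharing bases with a match on the other strand, and MCM2 held 1 such pair made of 2 TTTCGCGC matches. The match in POLE lay on the reverse strand.

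Other motifs were searched in the same windows on both strands. CCAAT, the box bound by NF-Y, was present in 59.5% of the replication gene promoters, against 35.7% of all promoters. TTTGAA, the CHR element of late cell cycle genes, was present in 2.38%, in RRM1 alone, against 15.4% of all promoters and 75.0% of the mitosis gene promoters. GCATGCGC, the core of the NRF1 motif, was present in ORC6, CDT1, POLA2 and UNG (9.52%, against 3.27% of all promoters). The EGR1 motif, GCGTGGGCG or GCGGGGGCG, was present in POLD1, RFC1, LIG1, CHAF1B and UHRF1 (11.9%, against 5.70%). A match of letters is a description of the sequence and does not show binding.

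The libraries held 14177970 to 18915400 counts. Each TF was over-represented in its own library, from 28.4-fold over control for TFCP2 to 1182-fold for NKX2-8, with 53.9-fold for E2F4 and 86.2-fold for NRF1. The control library held 12.6 times as much TFCP2 as the mean of the other TF libraries at 9812 counts, and so stood apart from its label for this transcript. No library was removed. For the medians of the 48 genes and for log2FC of genes described library by library, the value with the average of the 7 other TF libraries as the reference is given as well. Between 23344 and 24593 genes were detected in 7 libraries, and 26166 and 26296 in the NRF1 and EGR1 libraries. All 10 kidney and epithelial genes checked were at 1 CPM (the count as a share of the TMM-scaled library total, in the usual unit) or more in every library. Leukocyte markers summed to 2.40 to 5.77 CPM in the TF libraries and 2.72 CPM in control, with PTPRC and CD3E at 0 in the E2F4 and control libraries. Fibroblast markers summed to 27.2 to 43.5 CPM in the TF libraries and 31.6 CPM in control. Erythroid markers summed to 0.286 to 2.80 CPM and hepatocyte markers to 0.0572 to 1.31 CPM in the TF libraries, against 0.0544 CPM each in control.

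The 48 replication genes were well measured, with 215 to 12896 counts and 13.3 to 721 CPM. No replication gene differed from control by 1.5-fold in any TF library. Of the 384 pairs of gene and TF library, 0 were past 1.5-fold and 14 were past 0.32 on the log2 scale, of which 1 was higher and 13 were lower than control. In 380 pairs the 95% interval of the ratio lay inside 1.5-fold both ways, and in 335 inside 0.32 either way on the log2 scale. These intervals cover counting error only, since with 1 library per condition there is no replicate check and no test. The 8 comparisons share the control library, which was the lowest of the 9 libraries for 0 and the highest for 10 of the 48 genes. The range of the fitted log2 fold changes (log2FC, TF library over control, with 2 counts added) is shown by gene and by library.

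**Figure D1:**
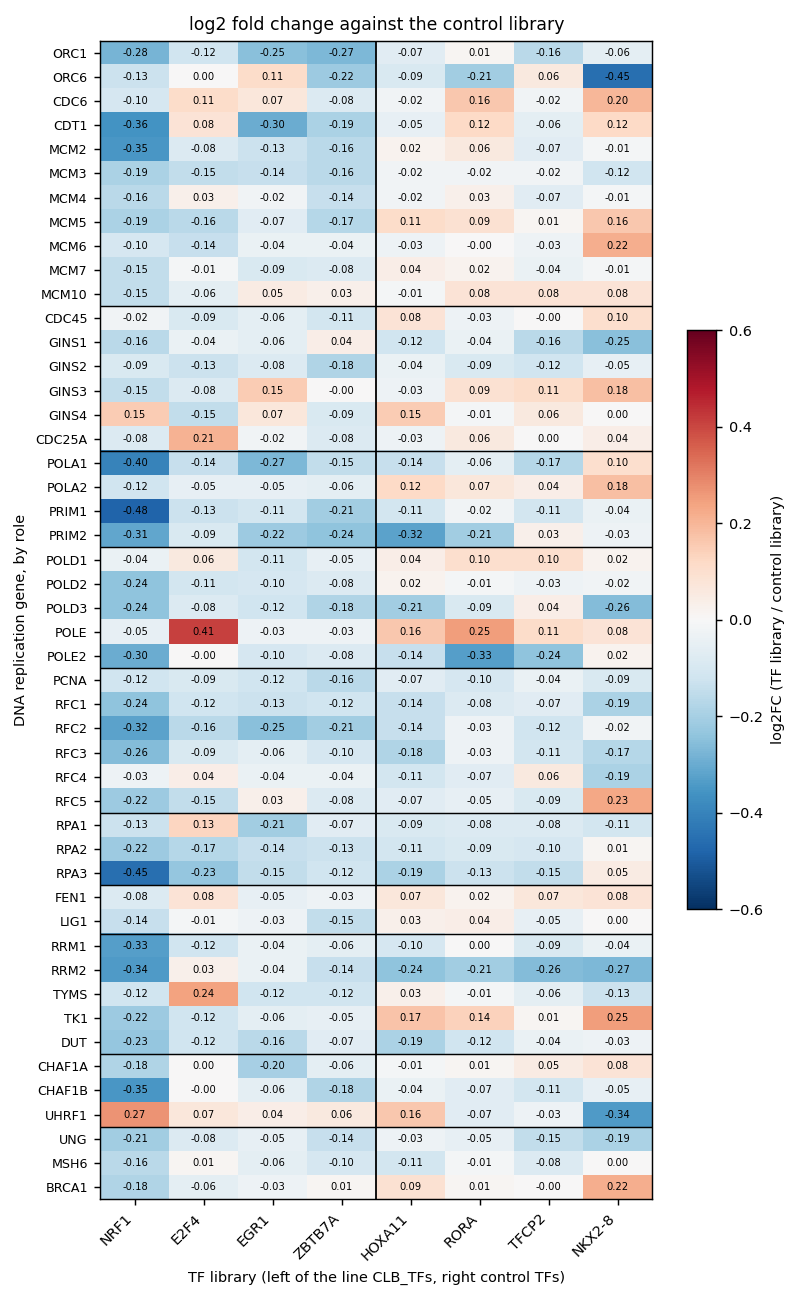
Log2FC of each of the 48 DNA replication genes (down the page, by role) in each of the 8 TF libraries over the control library. Blue is lower and red is higher than control. The deepest blue cells are PRIM1 in the NRF1 library at -0.48 and ORC6 in the NKX2-8 library at -0.45, and the deepest red is POLE in the E2F4 library at 0.41.

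Over the 9 libraries the coefficient of variation of a replication gene was 3.36% to 11.9%, with a median of 6.85%. For the 8837 genes whose average reached 15.3 CPM, that of the lowest replication gene (POLE2), the median was 7.82%, and counting error alone gave a median of 2.42% for the replication genes. The highest library was 1.12 to 1.53 times the lowest, with a median of 1.23 against 1.28 for the 8837 genes. The NRF1 library was the lowest for 30 of the 48 genes, and the NKX2-8 library was the highest for 15 and the lowest for 6. The same shares over the 8837 genes are not given.

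The number of replication genes past a fold was read against all genes. At 1.5-fold and 1 CPM or more, the shares of all genes called were 15.0% in the NRF1 library, 9.78% in E2F4, 6.77% in EGR1, 7.08% in ZBTB7A, 5.36% in HOXA11, 4.14% in RORA, 3.52% in TFCP2 and 10.1% in NKX2-8. Much of that was in low genes. Among the 8837 genes of like level, the shares past 1.5-fold were 1.30% in NRF1, 3.08% in E2F4, 0.475% in EGR1, 0.475% in ZBTB7A, 0.170% in HOXA11, 0.102% in RORA, 0.0566% in TFCP2 and 1.37% in NKX2-8. A count of 0 of 48 was therefore near the background of genes at this level in every library. Past 0.32 on the log2 scale the background of these genes was 15.6% in NRF1, 9.63% in E2F4, 2.30% in EGR1, 4.58% in ZBTB7A, 3.92% in HOXA11, 2.27% in RORA, 1.08% in TFCP2 and 12.1% in NKX2-8. Beside it stood 9 of the 48 replication genes in NRF1, 1 in E2F4, 0 in EGR1, 0 in ZBTB7A, 1 in HOXA11, 1 in RORA, 0 in TFCP2 and 2 in NKX2-8. With the average of the 7 other TF libraries as the reference, 0 pairs were past 1.5-fold and 5 of the 14 pairs were past 0.32 in the same direction. These were CDT1 (-0.33) and PRIM1 (-0.37) in NRF1, POLE (0.33) in E2F4, and ORC6 (-0.38) and UHRF1 (-0.42) in NKX2-8, as log2FC.

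The median log2FC of the 48 genes was -0.18 in the NRF1 library, -0.08 in E2F4, -0.06 in EGR1, -0.10 in ZBTB7A, -0.03 in HOXA11, -0.02 in RORA, -0.04 in TFCP2 and -0.01 in NKX2-8. For the 8837 genes of like level it was -0.10 in NRF1, -0.04 in E2F4, -0.05 in EGR1, -0.05 in ZBTB7A, -0.02 in HOXA11, -0.01 in RORA, -0.02 in TFCP2 and -0.04 in NKX2-8. The median of the replication genes minus that of the genes of like level was -0.08 in the NRF1 library and 0.03 in NKX2-8. With the 7 other TF libraries as the reference, the median of the 48 genes was -0.14 in NRF1, 0.03 in E2F4, -0.02 in EGR1, -0.05 in ZBTB7A, 0.02 in HOXA11, 0.06 in RORA, 0.01 in TFCP2 and 0.07 in NKX2-8. The medians of E2F4 and the 4 control TFs thus lay on the other side of 0, and for the genes of like level the NRF1 median was -0.08. Scaling by library totals moved the median of all genes in the NRF1 library to 0.13, from -0.02 with TMM factors. The replication genes then had a median of -0.03 and the genes of like level 0.05, again a difference of -0.08, and the number of replication genes past 0.32 was 2 in place of 9.

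**Figure D2:**
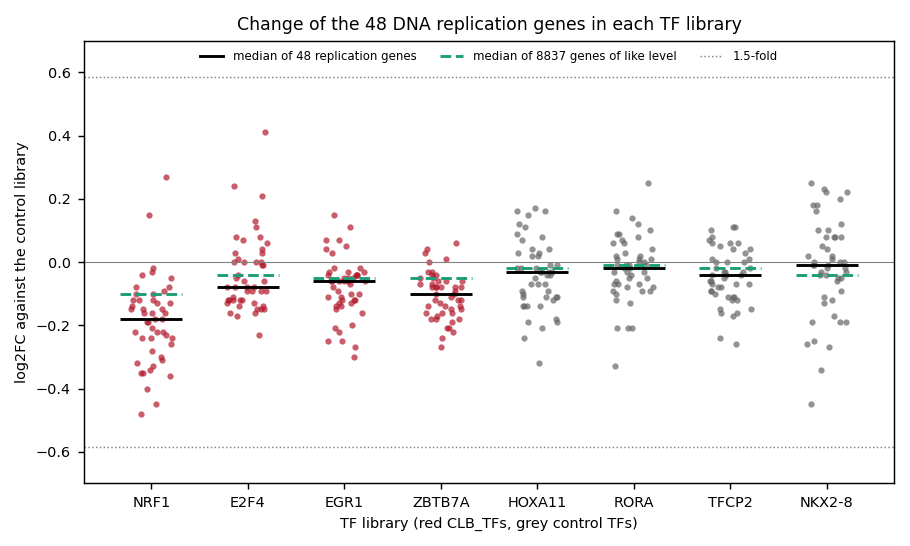
Log2FC of the 48 DNA replication genes in each TF library over the control library, 1 point a gene. The black line is their median and the dashed green line the median of the 8837 genes of like level, and dotted lines mark 1.5-fold. All points lie inside the dotted lines, and the NRF1 points sit lowest, with a median of -0.18.

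E2F4 is the factor of the series closest to this gene set. In the E2F4 library 33 of the 48 genes were below and 15 above control, and their summed level was 7744 CPM, against 7868 CPM in control, a ratio of 0.984 (95% counting interval 0.977 to 0.992). The genes of like level had a median log2FC of -0.04 there, and their share below control is not given. POLE, the catalytic subunit of polymerase epsilon (ENSG00000177084, chromosome 12, 133200339 to 133263962, GRCh37), was the gene of the 48 farthest above control. POLE measured 178 CPM in NRF1, 244 in E2F4, 179 in EGR1, 180 in ZBTB7A, 206 in HOXA11, 219 in RORA, 199 in TFCP2, 195 in NKX2-8 and 184 in control cells. The E2F4 library was the highest of the 9, and RORA the next. The ratio to control was 1.33 (1.27 to 1.39) in E2F4 and 1.19 in RORA. With the 7 other TF libraries in place of control, the log2FC of POLE in E2F4 was 0.33. POLE2, the accessory subunit of the same polymerase, was at 16.7 CPM in both the E2F4 and the control library.

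TYMS, thymidylate synthase (chromosome 18, 657653 to 673578), had 139 CPM in NRF1, 179 in E2F4, 139 in EGR1, 140 in ZBTB7A, 154 in HOXA11, 150 in RORA, 146 in TFCP2, 138 in NKX2-8 and 152 in control cells. The E2F4 library was again the highest, at 1.18 times control (1.12 to 1.24), with a log2FC of 0.24 over control and 0.31 over the 7 other TF libraries. TYMS shares 26.2% of its exon bases with ENOSF1 and TYMSOS on the other strand, whose reads may not be separated from its own. CDC25A, the phosphatase that activates CDK2 at G1/S (chromosome 3, 48198636 to 48229907), stood at 188 CPM in NRF1, 230 in E2F4, 196 in EGR1, 188 in ZBTB7A, 195 in HOXA11, 208 in RORA, 199 in TFCP2, 204 in NKX2-8 and 199 in control cells. Its ratio in E2F4 was 1.16 (1.11 to 1.21), and its log2FC 0.21 over control and 0.23 over the 7 other TF libraries. RPA1, FEN1, RRM2 and MSH6 were also highest in the E2F4 library, with RPA1 at 270 CPM against 247 in control and RRM2 at 120 CPM against 118 in control.

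The genes farthest below control in the E2F4 library were RPA3, RPA2 and RFC2. RPA3, the smallest RPA subunit, had 41.7 CPM in NRF1, 48.4 in E2F4, 51.1 in EGR1, 52.2 in ZBTB7A, 49.9 in HOXA11, 51.8 in RORA, 51.4 in TFCP2, 58.9 in NKX2-8 and 56.9 in control cells. The ratio of RPA3 was 0.851 (0.776 to 0.932) in E2F4 and 0.733 (0.664 to 0.809) in NRF1, where the log2FC was -0.45 against control and -0.32 against the 7 other TF libraries. RPA2, the middle subunit, had 128 CPM in NRF1, 132 in E2F4, 135 in EGR1, 136 in ZBTB7A, 138 in HOXA11, 140 in RORA, 139 in TFCP2, 150 in NKX2-8 and 149 in control cells. RFC2, a subunit of the clamp loader, had 91.2 CPM in NRF1, 102 in E2F4, 95.9 in EGR1, 98.9 in ZBTB7A, 103 in HOXA11, 112 in RORA, 105 in TFCP2, 113 in NKX2-8 and 114 in control cells. For both, control was among the highest of the libraries. Set against the 7 other TF libraries, the E2F4 log2FC was -0.08 for RPA3, -0.06 for RPA2 and -0.01 for RFC2, so these lower values depended on the control library as the reference.

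**Figure D3:**
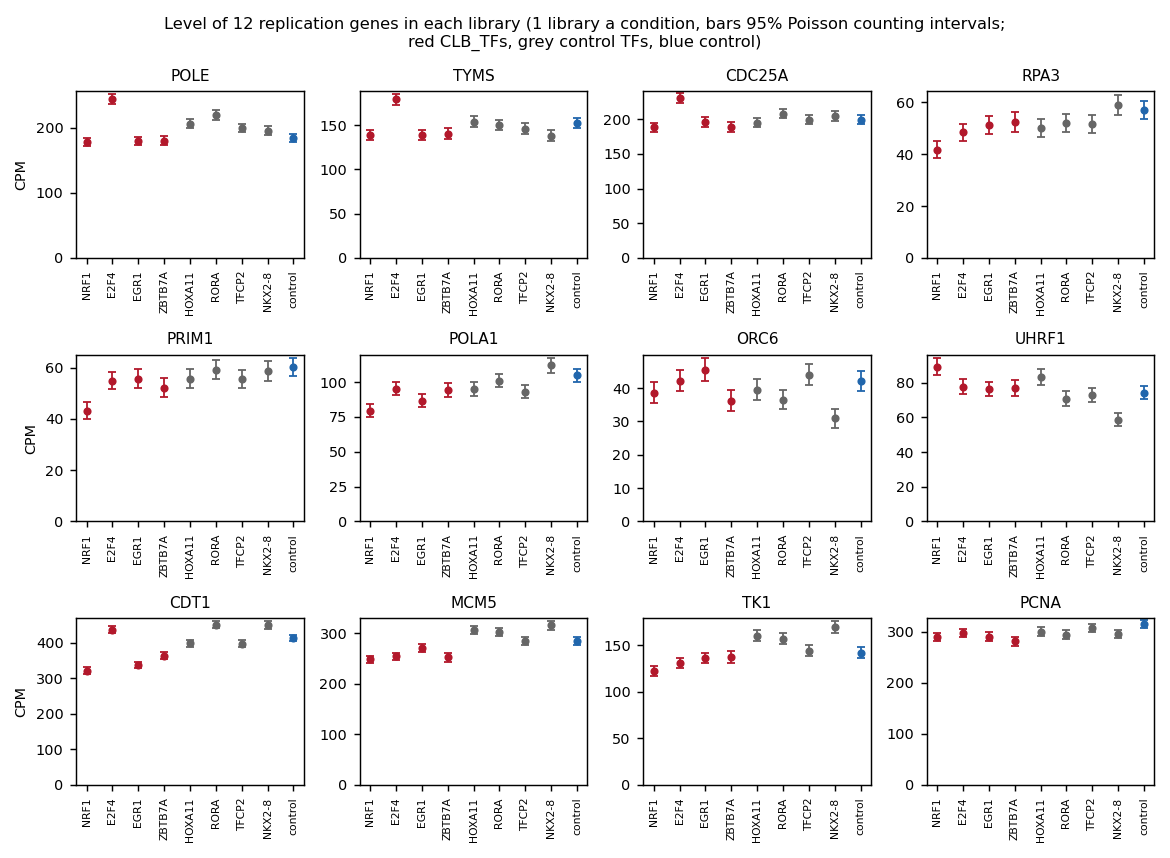
CPM of 12 replication genes in each of the 9 libraries (red CLB_TFs, grey control TFs, blue control), 1 library a condition, with 95% Poisson counting intervals. The E2F4 library is the highest for POLE (244 CPM), TYMS (179 CPM) and CDC25A (230 CPM). The 4 CLB_TF points lie below the 4 control TF points for MCM5 and TK1.

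The same library held larger changes in the regulators of the G1/S step. E2F7, a repressor of the E2F family, had 1916 counts in the E2F4 library and 611 in control (3.23-fold, 2.95 to 3.54). CCNE2 and CCNE1, the E-type cyclins that drive S phase entry, had 997 and 1182 counts in the E2F4 library, against 428 and 593 in control (2.40-fold and 2.05-fold). With the 7 other TF libraries as the reference, the log2FC was 1.62 for E2F7, 1.21 for CCNE2 and 1.21 for CCNE1. These 3 of 20 E2F family and G1/S regulator genes were 2-fold or more above control, against 3.68% of the 14193 genes at 1 CPM or more, and the next was CDKN1A, an inhibitor of cyclin-dependent kinases, at 1.33-fold. Of 44 other replication genes, RECQL4, a helicase of origin firing, was at 154 CPM in E2F4 cells and 102 CPM in control cells (1.52-fold, 1.43 to 1.61). POLD4, a small subunit of polymerase delta, had 51 and 32 counts (1.64-fold, 1.03 to 2.64), and DONSON, which helps assemble the helicase, was at 1.37-fold. All others on this list had smaller log2FC over control. Set against the 7 other TF libraries, the log2FC was 0.47 for RECQL4, 0.04 for POLD4, 0.53 for DONSON and 0.12 for CDKN1A. Over control these values were 0.60, 0.68, 0.45 and 0.41. The POLD4 value thus depended on the control library, which was the lowest library for this gene at 1.74 CPM. With the 7 other TF libraries as the reference, the highest of the 44 genes was DCK, at a log2FC of 0.58, with 0.38 over control. None of 30 mitosis genes was past 1.5-fold, and the farthest were BUB1B at -0.28, PRC1 at 0.27 and CENPA at -0.23 on the log2 scale. Against the 7 other TF libraries they were at -0.09, 0.05 and -0.15. The median log2FC was -0.08 for the 48 genes, 0.00 for the other replication genes, -0.07 for the mitosis genes and 0.06 for the regulators.

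**Figure D4:**
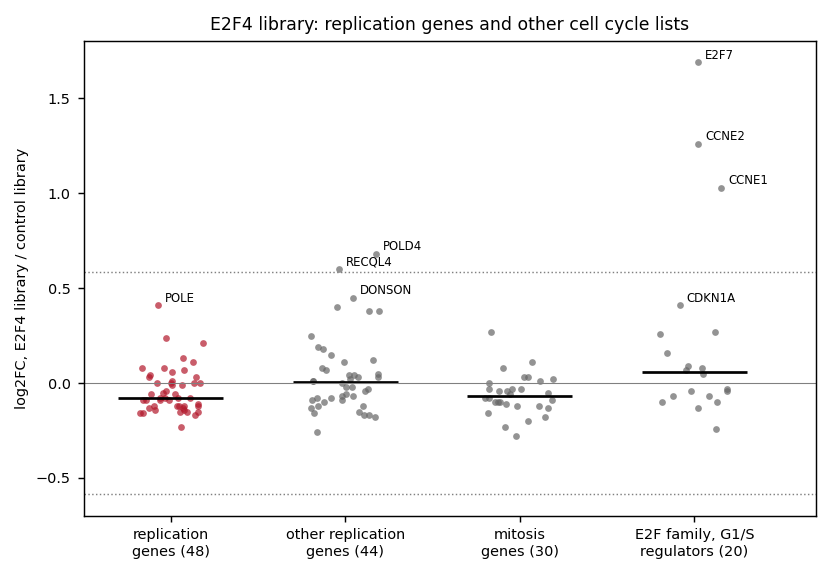
Log2FC in the E2F4 library over the control library for the 48 replication genes and 3 other cell cycle lists, 1 point a gene, with black lines at the medians and dotted lines at 1.5-fold. E2F7 (1.69), CCNE2 (1.26) and CCNE1 (1.03) lie far above the replication genes, of which POLE (0.41) is the highest.

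Within the 42 genes with a promoter in the table, values of the E2F4 library overlapped between genes with and without the E2F motif. The 11 genes with the motif had a median log2FC of -0.04 (range -0.15 to 0.41, 3 above 0), and the 31 without it -0.08 (range -0.16 to 0.24, 9 above 0). Of the 5 genes whose promoters are printed, POLE, CDC25A and TYMS were above control, and MCM6 and MCM2, with the most matches, were at -0.14 and -0.08 on the log2 scale. For the NRF1 library the 4 genes with the NRF1 motif had a median of -0.17 and the 38 without it -0.17. In the EGR1 library the medians were -0.06 for the 5 genes with the EGR1 motif and -0.06 for the 37 without.

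In the NRF1 library 46 of the 48 genes were below control, and the summed level was 6901 CPM, against 7868 CPM in control (ratio 0.877, 0.870 to 0.884). The 9 genes past a log2FC of 0.32 were CDT1, MCM2, POLA1, PRIM1, RFC2, RPA3, RRM1, RRM2 and CHAF1B, with ratios from 0.716 to 0.799. With library totals as the scale, 30 of the 48 were below control. The genes of like level had a median log2FC of -0.10 with TMM factors and 0.05 with library totals. Their share below control is not given, so the 46 of 48 is not read as particular to the replication genes. PRIM1, the catalytic subunit of primase (chromosome 12, 57124222 to 57146158), had 43.1 CPM in NRF1, 54.9 in E2F4, 55.6 in EGR1, 52.0 in ZBTB7A, 55.6 in HOXA11, 59.1 in RORA, 55.5 in TFCP2, 58.5 in NKX2-8 and 60.1 in control cells. The NRF1 library was the lowest and control the highest, with a ratio of 0.716 (0.650 to 0.789). POLA1, the catalytic subunit of polymerase alpha, had 79.6 CPM in NRF1, 95.2 in E2F4, 86.6 in EGR1, 94.2 in ZBTB7A, 95 in HOXA11, 101 in RORA, 93.1 in TFCP2, 112 in NKX2-8 and 105 in control cells. NRF1 was the lowest and NKX2-8 the highest for POLA1. With the 7 other TF libraries in place of control, the NRF1 log2FC was -0.37 in place of -0.48 for PRIM1 and -0.28 in place of -0.40 for POLA1, and the EGR1 log2FC of POLA1 was -0.14 in place of -0.27. The log2FC was -0.33 for PRIM1 and -0.25 for POLA1 with library totals in place of TMM factors. UHRF1, which reads hemimethylated DNA behind the fork, was the gene farthest above control in NRF1, at 89.2 CPM against 74.2 CPM in control (1.20-fold, 1.12 to 1.30), and GINS4 was the other gene above control.

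EGR1 and ZBTB7A libraries held smaller values, with 0 of 48 genes past 0.32 in either. CDT1, the licensing factor that delivers MCM2-7 to origins, had 322 CPM in NRF1, 437 in E2F4, 338 in EGR1, 364 in ZBTB7A, 399 in HOXA11, 451 in RORA, 398 in TFCP2, 451 in NKX2-8 and 414 in control cells. It was below control in NRF1, EGR1 and ZBTB7A and above it in E2F4, and its ratio in EGR1 was 0.815 (0.786 to 0.844), a log2FC of -0.30 against control and -0.26 against the 7 other TF libraries. ORC1, the largest subunit of the origin recognition complex, had 59.4 CPM in NRF1, 66.1 in E2F4, 60.4 in EGR1, 59.8 in ZBTB7A, 68.6 in HOXA11, 72.5 in RORA, 64.4 in TFCP2, 69.1 in NKX2-8 and 72.0 in control cells. NRF1, EGR1 and ZBTB7A were the lowest 3 libraries for ORC1, at ratios of 0.825 (0.758 to 0.897), 0.838 (0.771 to 0.911) and 0.830 (0.761 to 0.905). Control was next to the highest library for ORC1, and with the 7 other TF libraries as the reference its log2FC was -0.12 in EGR1 and -0.14 in ZBTB7A, in place of -0.25 and -0.27. PRIM2, the regulatory subunit of primase, had 22.8 CPM in NRF1, 26.6 in E2F4, 24.3 in EGR1, 24.0 in ZBTB7A, 22.7 in HOXA11, 24.6 in RORA, 29.0 in TFCP2, 27.9 in NKX2-8 and 28.4 in control cells. Its lowest library was HOXA11, at a ratio of 0.798 (0.698 to 0.913), with NRF1 at nearly the same level. With the 7 other TF libraries as the reference, the log2FC of PRIM2 was -0.17 in HOXA11 and -0.08 in ZBTB7A, in place of -0.32 and -0.24.

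Among the control TFs, NKX2-8 gave the widest spread, from -0.45 to 0.25. ORC6, the smallest ORC subunit, had 38.6 CPM in NRF1, 42.2 in E2F4, 45.5 in EGR1, 36.1 in ZBTB7A, 39.5 in HOXA11, 36.5 in RORA, 43.9 in TFCP2, 30.9 in NKX2-8 and 42.2 in control cells. The NKX2-8 library was the lowest, at a ratio of 0.731 (0.651 to 0.821), and the log2FC was -0.45 against control and -0.38 against the 7 other TF libraries. In ZBTB7A the log2FC of ORC6 was -0.22 against control and -0.13 against the 7 other TF libraries. UHRF1 was also lowest in the NKX2-8 library, at 58.5 CPM against 74.2 CPM in control (0.788, 0.723 to 0.859), and it had the widest range of the 48 genes, 1.53 times between the NRF1 and NKX2-8 libraries. TK1, MCM6, RFC5 and BRCA1 were highest in NKX2-8, with MCM6 at 293 CPM against 252 CPM in control and RFC5 at 139 CPM against 118 CPM in control.

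POLE2 had 13.6 CPM in NRF1, 16.7 in E2F4, 15.6 in EGR1, 15.8 in ZBTB7A, 15.2 in HOXA11, 13.3 in RORA, 14.1 in TFCP2, 16.9 in NKX2-8 and 16.7 in control cells. It was the lowest gene of the set, and its 220 counts in RORA and 307 in control left a wide interval (ratio 0.796, 0.667 to 0.950). Its RORA log2FC was -0.33 against control and -0.21 against the 7 other TF libraries. RRM2, the regulated subunit of ribonucleotide reductase, had 93.2 CPM in NRF1, 120 in E2F4, 114 in EGR1, 107 in ZBTB7A, 99.3 in HOXA11, 102 in RORA, 98.3 in TFCP2, 97.5 in NKX2-8 and 118 in control cells. All 4 control TF libraries were below control and within 97.5 to 102 CPM, with a ratio of 0.835 (0.784 to 0.890) in TFCP2. Control was next to the highest library for RRM2, and the TFCP2 log2FC was -0.26 against control and -0.09 against the 7 other TF libraries. RRM2 shares 34.6% of its exon bases with other annotated genes and has 3 named pseudogenes, so its counts are less certain than those of most of the set.

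The most even genes were PCNA, FEN1 and MSH6. PCNA, the sliding clamp, had 289 CPM in NRF1, 297 in E2F4, 290 in EGR1, 281 in ZBTB7A, 300 in HOXA11, 294 in RORA, 307 in TFCP2, 295 in NKX2-8 and 315 in control cells, a range of 0.16 on the log2 scale. FEN1, the flap nuclease that trims Okazaki fragments, ranged over 0.16, with 117 CPM in NRF1, 132 in E2F4, 120 in EGR1, 122 in ZBTB7A, 130 in HOXA11, 126 in RORA, 131 in TFCP2, 131 in NKX2-8 and 124 in control cells. MSH6, a mismatch recognition subunit, ranged over 0.17, with 241 CPM in NRF1, 270 in E2F4, 258 in EGR1, 251 in ZBTB7A, 249 in HOXA11, 266 in RORA, 253 in TFCP2, 269 in NKX2-8 and 268 in control cells. No library departed from the others by more than 1.12-fold for these 3 genes. LIG1, which seals the fragments, was at 86.7 to 98.6 CPM.

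By role, log2FC over all 8 TF libraries ran from -0.45 (ORC6) to 0.22 (MCM6) in the 11 genes of origin recognition and licensing, with 27 values above 0. Among them CDC6, a loader of the helicase, was at 85.4 to 105 CPM and MCM10, which helps activate it, at 73.5 to 86.8 CPM. The 6 genes of origin firing ran from -0.25 (GINS1) to 0.21 (CDC25A), with a median of -0.03. CDC45, the helicase cofactor, was at 96.7 to 112 CPM. The 4 genes of polymerase alpha-primase ran from -0.48 (PRIM1) to 0.18 (POLA2) and had the lowest median of any role in NRF1, -0.35. The clamp and its loader ran from -0.32 (RFC2) to 0.23 (RFC5), and the 3 RPA genes from -0.45 (RPA3) to 0.13 (RPA1).

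The 5 genes of polymerases delta and epsilon ran from -0.33 (POLE2) to 0.41 (POLE). The 5 genes of nucleotide synthesis ran from -0.34 (RRM2) to 0.25 (TK1), and DUT, which removes dUTP, was at 78.8 to 92.7 CPM. DUT has 8 named pseudogenes, the most of any gene in the set. The chromatin genes ran from -0.35 (CHAF1B) to 0.27 (UHRF1), and CHAF1A, the large subunit of the CAF-1 histone chaperone, was at 142 to 172 CPM. The 3 repair genes ran from -0.21 to 0.22, with UNG, which removes uracil from DNA, at 95.3 to 110 CPM and BRCA1, a homologous recombination factor, at 70.2 to 92.8 CPM.

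Levels of the subunits of a complex were compared per kb of exon, as CPM per kb. Within the MCM2-7 helicase, MCM7 averaged 156 ± 6.55 CPM per kb (SD, n = 9 libraries), MCM2 87.5 ± 7.19, MCM3 83.3 ± 4.25, MCM4 67.1 ± 3.15, MCM6 60.5 ± 4.34 and MCM5 38.1 ± 3.43. The ranges of MCM2 and MCM3 overlapped, as did those of MCM4 and MCM6, and the other neighbours were apart in all 9 libraries. The exon length of a gene is the same in every library, so the order rests on it. MCM5 had the longest, 7.34 kb, against 4.12 kb for MCM6. Without the division by length MCM5 averaged 280 CPM, above MCM6 at 249 CPM. MCM2 and MCM3 share 23.3% and 20.9% of their exon bases with other annotated genes. In GINS, the order was GINS2 (27.0), GINS1 (11.6), GINS4 (7.99) and GINS3 (7.33), the last pair overlapping. GINS4 and GINS3 share 23.6% and 15.6% of their exon bases with other annotated genes.

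The same order held in all 9 libraries for the larger steps in other complexes. RFC2 averaged 47.0 CPM per kb, RFC5 35.5, RFC3 35.0, RFC1 19.6 and RFC4 18.5, and RFC5 lay above RFC3 in only 3 of the 9 libraries. POLD2, the accessory subunit of polymerase delta, averaged 65.4 CPM per kb, above POLD1, the catalytic subunit, at 34.9 and POLD3 at 11.4. POLE was at 11.9 and POLE2 at 5.18, the lowest level of the 48 genes, while PCNA was the highest at 202. RPA2 was at 68.7, RPA1 at 42.9 and RPA3 at 15.9, and RRM1, the large subunit of ribonucleotide reductase, at 81.4 against 19.8 for RRM2. PRIM1 was at 22.5, POLA2 at 17.1, POLA1 at 15.1 and PRIM2 at 6.44, and CHAF1A was at 37.1 against 15.6 for CHAF1B. Exon length is the union of annotated exons, so a gene with long unused exons has a lower value.

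**Figure D5:**
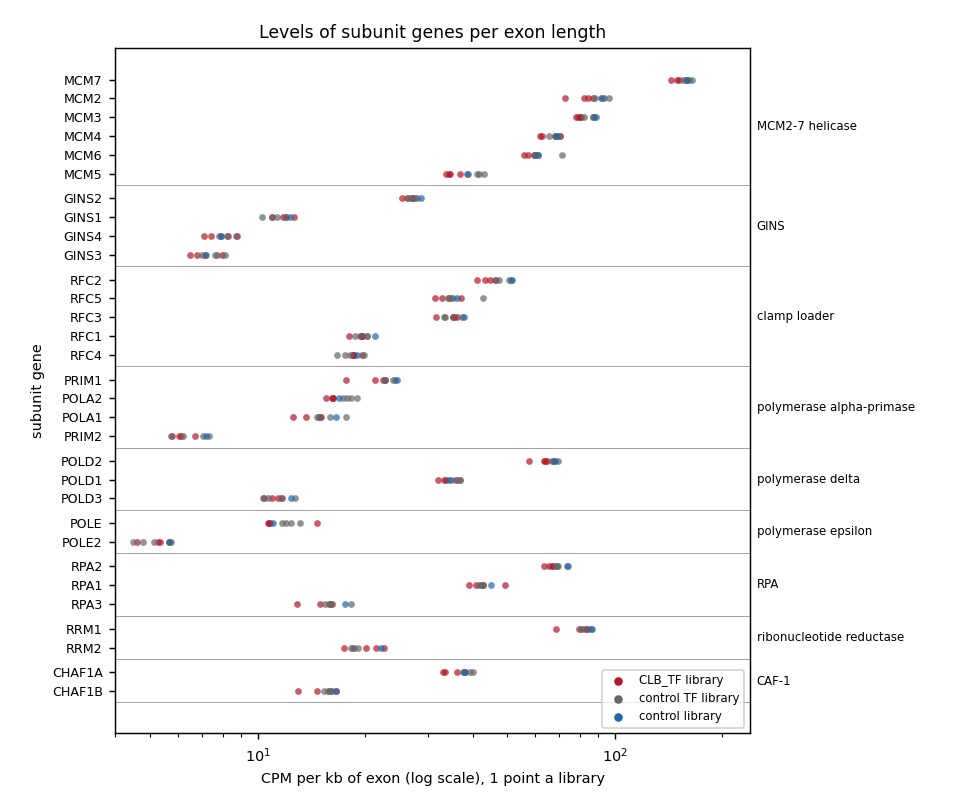
CPM per kb of exon (log scale) of the subunit genes of 9 complexes, 1 point a library (red CLB_TF, grey control TF, blue control). The ranges of MCM7 (144 to 164 CPM per kb) and MCM5 (33.8 to 43.1 CPM per kb) lie far apart, while those of neighbours such as RFC5 and RFC3 overlap. The exon length was 4.39 kb for MCM7 and 7.34 kb for MCM5.

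The study set the CLB_TFs against the control TFs, and here each TF library served as 1 value of its class, so that the spread is that between TFs and not between cultures of 1 TF. Of the 48 genes, 38 were lower and 10 higher in the CLB_TF libraries, with a median log2FC of -0.07 against 0.00 for all 15012 genes tested. By edgeR's quasi-likelihood test with Benjamini-Hochberg adjustment, 0 of the 48 genes passed an adjusted p of 0.05, against 6 of all genes (0.0400%). At an unadjusted p under 0.05, 8 of the 48 were lower and 0 higher in CLB_TF libraries (16.7%, against 10.2% of all genes, which were 668 lower and 863 higher). They were MCM5, TK1, POLA2, RFC2, MCM2, ORC1, CHAF1A and CDT1. The share of all genes takes in genes of lower level, and a share for the genes of like level is not given. DESeq2 called 2 of the 48, MCM5 and TK1, and 142 of all genes (0.946%).

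MCM5, a helicase subunit, had the smallest p of the set, with 248, 254, 271 and 252 CPM in the NRF1, E2F4, EGR1 and ZBTB7A libraries, against 306, 302, 285 and 316 CPM in the HOXA11, RORA, TFCP2 and NKX2-8 libraries, and 284 CPM in control cells. The mean was 256 ± 10.1 CPM in CLB_TF and 302 ± 13.0 CPM in control TF libraries (SD, n = 4 each), with a log2FC of -0.23 ± 0.056 (SE) and an adjusted p of 0.201 by edgeR's quasi-likelihood test. TK1, thymidine kinase, had 122, 131, 136 and 137 CPM in the NRF1, E2F4, EGR1 and ZBTB7A libraries, against 160, 157, 144 and 169 CPM in the HOXA11, RORA, TFCP2 and NKX2-8 libraries, and 142 CPM in control cells. Its log2FC was -0.25 ± 0.061 (SE), with an adjusted p of 0.203 by the same edgeR test. POLA2, the accessory subunit of polymerase alpha, had 89.1, 93.4, 93.3 and 92.7 CPM in the 4 CLB_TF libraries, against 105, 102, 99.3 and 109 CPM in the 4 control TF libraries, and 96.8 CPM in control cells (log2FC -0.16 ± 0.051, edgeR adjusted p = 0.331). The control library lay between the classes for all 3 genes.

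The CPM of the classes did not overlap for 9 of the 48 genes (18.8%, against 6.79% of all genes tested), all 9 lower in CLB_TF libraries: MCM5, TK1, POLA2, RFC2, MCM2, POLD2, MCM3, RPA2 and MCM6. Scaled by library totals it was 7 genes (14.6%, against 5.66% of all genes), 5 lower and 2 higher. With DESeq2 size factors it was 6 genes, all lower (12.5%, against 6.24% of all genes). Without the E2F4 library, with 3 libraries against 4, it was 17 genes, all lower (35.4%, against 11.2% of all genes), and without TFCP2 15 genes (31.2%, against 11.0%). The genes farthest the other way, UHRF1 at 0.18 ± 0.095 and RRM2 at 0.14 ± 0.068 (SE), overlapped between classes. Standard errors of the 48 genes were 0.046 to 0.107 on the log2 scale. The shares of all genes without overlap take in genes of lower level than the 48. Shares for the genes of like level, and the split of all genes without overlap by direction, are not given.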

How the data were processed

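RNA-seq of 9 libraries of 293T cells was analysed from the count table the authors deposited, which gives raw counts per gene without normalization. Per the submitters' processing notes and the methods, reads were checked with FastQC 0.11.2, mapped to GRCh37 with STAR 2.6.0c and counted with featureCounts 1.6.3, keeping uniquely mapped reads. The kit was directional. Whether counting used strand is not given in the sources, so overlapping and antisense genes are uncertain: 26 of the 48 genes share exon bases with another gene and 13 have named pseudogenes. The labels give extraction with TRIzol and the methods a miRNeasy kit.

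Counts were scaled by TMM factors (0.972 to 1.08) in edgeR 4.0.16 (R 4.3.3). Log2FC used a prior count of 2, and ratios of CPM have exact conditional binomial 95% intervals, which cover counting error only. A gene was called past 1.5-fold with at least 1 CPM in the higher library. The class of each TF was taken from the methods, and the classes of 4 TF libraries each were set against each other in edgeR (quasi-likelihood test, 2-sided, filterByExpr, Benjamini-Hochberg adjustment over all genes tested, threshold 0.05), tested on simulated data. The p-values measure the spread between TFs.

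Members, lists and rules were chosen with earlier results of these data known. Values in every library are given for the 6 genes of largest absolute log2FC in E2F4, the 3 largest in each other CLB_TF, the 1 largest in each control TF, the 3 of smallest adjusted p and the 3 of smallest range. From each other list the 3 of largest absolute log2FC in E2F4 are named for the cell cycle lists. UHRF1, RPA1, MCM6, RFC5, CDKN1A and other genes outside this rule were named after their values were seen. Alternatives were library totals, DESeq2 1.42.0 (size factors and Wald test), other prior counts, CPM minimums, folds and reference, no filter, and each TF library left out. Genes of like level, pairs past a log2FC of 0.32, class overlap and the MCM6 and MCM2 promoters were added after seeing the data. Positions of genes are from GENCODE v44lift37, and promoter positions are exact matches in GRCh37.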

Additional observations from a re-analysis of the deposited data

Results flagged for a closer look

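Within each class of 4 TF libraries, the CPM of each of the 48 genes was examined for 1 library far from the other 3 by Dixon's test at its 95% critical value. This held in 11 of 96 groups. The critical value is set to flag about 1 in 20 groups of independent values of 1 kind. Here the 4 values of a group came from 4 different TFs, and all 48 genes were read in the same libraries. That rate therefore does not apply, and the share over all genes was not computed. The count of 11 is not read as an excess. Among CLB_TF libraries the E2F4 library stood above the others for POLE (244 CPM, others 178 to 180), TYMS (179 CPM, others 139 to 140), ORC1 (66.1 CPM, others 59.4 to 60.4) and RFC4 (58.8 CPM, others 55.5 to 55.8). The NRF1 library stood below for POLD2 (213 CPM, others 234 to 238) and RFC1 (121 CPM, others 131 to 132) and above for UHRF1 (89.2 CPM, others 76.2 to 77.7). Among control TF libraries the NKX2-8 library stood above for MCM6 (293 CPM, others 246 to 251) and RFC5 (139 CPM, others 111 to 115) and below for MCM3 (299 CPM, others 318 to 320), and the HOXA11 library stood below for MCM10 (81.5 CPM, others 86.2 to 86.8).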

How the results depend on the processing

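Each log2FC for which a gene was chosen kept its sign under the other scalings, prior counts and reference. This was not so for every gene in every library. In NRF1, 46 of the 48 genes were below control with TMM factors and 30 with library totals. With library totals in place of TMM factors, the NRF1 median was -0.03 and the NKX2-8 median 0.02, the pairs past a log2FC of 0.32 were 5 in place of 14, and 1 gene in place of 6 was called between TF classes. With the 7 other TF libraries as the reference the medians were above 0 in place of below it in E2F4 (0.03), HOXA11 (0.02), RORA (0.06), TFCP2 (0.01) and NKX2-8 (0.07), and 5 pairs were past 0.32, and without the NRF1 library 5 pairs remained. A call at a log2FC of 0.32 in place of 1.5-fold gave 9 genes in NRF1, 1 in E2F4, 1 in HOXA11, 1 in RORA and 2 in NKX2-8. Between classes, DESeq2 called 142 genes and 2 of the 48, and edgeR without a filter on low counts 795 genes and 1 of the 48 (TK1). With library totals 7 of the 48 did not overlap between classes (14.6%, against 5.66% of all genes). With DESeq2 size factors it was 6 (12.5%, against 6.24%). With each TF library left out in turn, edgeR called 0 to 60 genes, with 1 without NRF1, 21 without E2F4, 60 without EGR1, 16 without ZBTB7A and 0 without each control TF, and 0 of the 48 each time, while 9 to 17 of the 48 did not overlap between classes (17 without E2F4, 15 without TFCP2), beside 9.25% to 11.2% of all genes. Over these alternatives the adjusted p ran from 0.00625 (DESeq2) to 0.480 for MCM5, from 0.0128 (edgeR, no filter) to 0.514 for TK1 and from 0.222 to 0.629 for POLA2. The causes were not tested. No paired analysis was possible because each condition had 1 library and no replicate numbers were shared. Depth limits the lowest genes most, such as POLE2, where counting error alone gave a coefficient of variation of 6.29%.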
